A study of Drosophila melanogaster with 9 samples.

Results

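The genes of 4 packaging proteins of the sperm nucleus, Mst35Ba, Mst35Bb, Mst77F and Prtl99C, were followed in RNA-seq of adult Drosophila melanogaster testes. They were chosen by name for the function of their proteins, though earlier results of these data were known at the time. The deposited table lists 7539 genes and all 4 were among them, but only Mst77F stood there under the name used here. Mst35Ba is listed as ProtA, Mst35Bb as ProtB and Prtl99C as CG15510, and these were matched through gene IDs and RefSeq synonyms. The mutant flies were Dm310s mutant animals, which lack the miR-310 cluster, a group of neighbouring microRNA genes, and they were set against Control flies. Both lines were made from the stock EP(2)2587, so they have that P-element background in common. There were 2 testis libraries per group, from adults of 3 to 5 days kept at 25 °C. Whether each library is a dissection of its own is not stated in the labels. The limma p-values below set the difference between the groups against the spread within them, which is moderated over all genes. That spread can be no more than technical. The other 5 libraries of the series hold small RNAs of other strains and were not used here.

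In late spermatids of the fly, histones are removed from the chromatin and small, highly basic proteins take their place, which compacts the paternal genome into the needle-shaped sperm head. Mst35Ba and Mst35Bb are the fly protamines A and B, a pair of very similar proteins encoded by neighbouring genes. Mst77F resembles linker histones, packs DNA beside the protamines and is needed for the shape of the nucleus and for male fertility. Prtl99C is a protamine-like protein that contributes to the condensation of sperm chromatin and to the length of the sperm nucleus. Transcripts of such genes are generally made in spermatocytes, stored, and translated only after meiosis.

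All 4 genes were expressed in every library, at levels that hardly differed between the genotypes. Mst77F was by far the most abundant, Mst35Bb came next, then Mst35Ba, and Prtl99C was lowest. None of the 4 was called by limma at a Benjamini-Hochberg adjusted p under 0.05, a threshold that 113 of all 7539 genes, or 1.5%, passed (41 or 0.544% higher and 72 or 0.955% lower in the mutant). At an unadjusted p under 0.05 stood 1 of the 4, Mst35Ba, which was lower in the mutant, against 17.7% of all genes (8.18% higher and 9.47% lower). In whole-organ RNA, fewer cells of a stage and less RNA per cell cannot be told apart. Values are labelled log2(RPKM), where RPKM stands for reads scaled to gene length and library size, so that levels of different genes can be set side by side. The sorted columns of the 4 libraries differed by at most 0.044, the pattern that quantile normalization leaves. The values may thus be adjusted beyond that scaling, and equal ranks can give equal values.

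Mst77F, the linker-histone-like protein, stood at a log2(RPKM) of 9.21 and 9.25 in the mutant libraries, against 9.17 in both control libraries. The mutant libraries were thus slightly above the controls, in which the gene had the identical value and the same rank, 48. Its group means were 9.23 ± 0.028 in mutant and 9.17 ± 0.00 in control testes (SD, n = 2 each), and the difference of 0.064 (SE 0.054, 95% interval -0.071 to 0.20, limma adjusted p 0.583) did not pass. On the linear scale the means were 600.2 RPKM in mutant and 574 RPKM in control testes, and the interval of the difference allows a ratio between 0.952 and 1.15. By its mean level, Mst77F ranked 45 of 7539, above 99.4% of the genes in the table.

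Mst35Bb, protamine B, stood at 6.92 and 6.79 in the mutant libraries and at 6.86 and 6.77 in the control libraries on the log2(RPKM) scale. The groups overlapped, and replicate 1 was the higher library in each. Means of 6.85 ± 0.089 in mutant and 6.81 ± 0.061 in control testes (SD, n = 2 each) gave a difference of 0.039 (SE 0.068, interval -0.13 to 0.21, limma adjusted p 0.809). Its sign turned to -0.024 without mutant replicate 1 and to -0.0039 without control replicate 2. The gene ranked 345 by mean level, with 116 RPKM in mutant and 112 RPKM in control testes.

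Mst35Ba, protamine A, differed most of the 4. It stood at a log2(RPKM) of 5.46 and 5.45 in the mutant libraries, against 5.64 and 5.58 in the control libraries, so both mutant libraries lay below both controls. Groups that do not overlap were common in this table, at 50.4% of all genes, 24.2% with the mutant lower. The means were 5.45 ± 0.0078 in mutant and 5.61 ± 0.049 in control testes (SD, n = 2 each). The difference of -0.16 (SE 0.057, interval -0.30 to -0.014) had an unadjusted p of 0.037 in limma and an adjusted p of 0.258, and did not pass. As a ratio it is 0.897, with an interval from 0.812 to 0.991. Its size exceeded that of 67.6% of all genes. It kept its sign when any 1 library was left out, ranging from -0.19 to -0.12, and passed in none of these fits (adjusted p 0.347 to 0.662).

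Prtl99C, the protamine-like protein, had log2(RPKM) values of 4.96 and 5.09 in mutant and of 5.03 and 5.00 in control libraries. The mutant libraries enclosed the controls. Means were 5.02 ± 0.094 in mutant and 5.01 ± 0.023 in control testes (SD, n = 2 each), with a difference of 0.0094 (SE 0.069, interval -0.16 to 0.18, limma adjusted p 0.963). Only 5.25% of the genes in the table had a smaller difference in size. The sign turned to -0.057 without mutant replicate 2 and to -0.0069 without control replicate 2. At rank 1531 and about 32.5 RPKM in mutant and 32.3 RPKM in control testes, the gene still lay above 79.7% of the genes listed.

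**Figure D1:**
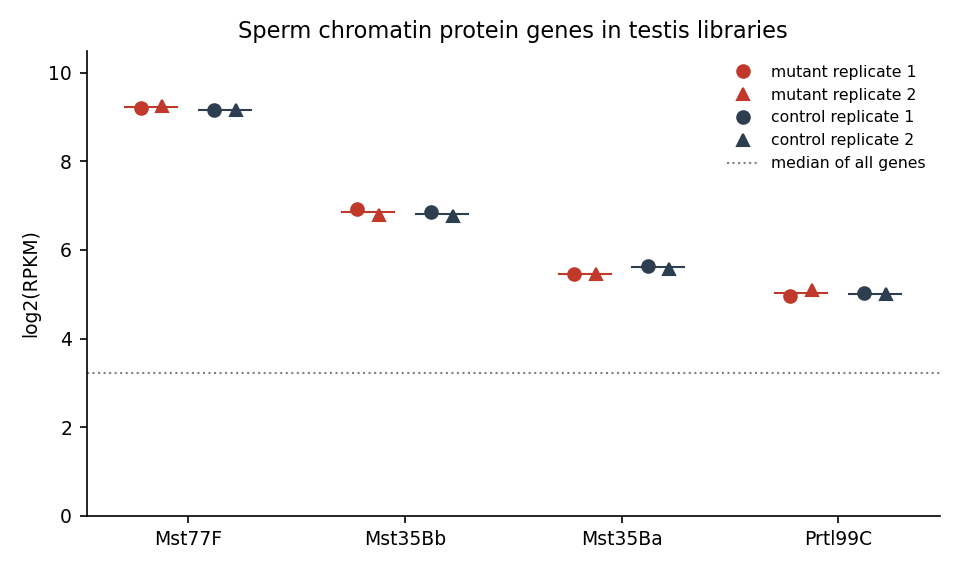
Log2(RPKM) of each sperm chromatin gene in the 2 mutant (red, left) and 2 control (dark, right) testis libraries; circles are replicate 1, triangles replicate 2, short lines the group means and the dotted line the median of all genes. The order of the 4 genes is the same in each library, and Mst35Ba is the gene whose mutant libraries both lie visibly below its controls, at 5.46 and 5.45 against 5.64 and 5.58.

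The order Mst77F, Mst35Bb, Mst35Ba, Prtl99C held within each of the 4 libraries, and each step in it was wider than the spread of the genes involved. Mst77F exceeded Mst35Bb by 2.29 and 2.46 on the log2 scale in mutant libraries and by 2.31 and 2.39 in control libraries, about a 5.19-fold gap in mutant and a 5.11-fold gap in control testes. The narrowest step, Mst35Ba over Prtl99C, was 0.50 and 0.36 in mutant libraries against 0.62 and 0.58 in control libraries. Even there the smallest within-library gap was larger than the highest SD of a member within a group, 0.094.

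Within the protamine pair, the gap was wider in both mutant libraries than in both controls. The test below could not decide whether the genotypes differ in it. Mst35Bb exceeded Mst35Ba by 1.46 and 1.34 on the log2 scale in mutant libraries and by 1.21 and 1.20 in control libraries. The groups did not overlap, with a mean excess of 1.40 ± 0.081 in mutant and 1.20 ± 0.012 in control testes (SD, n = 2 each), or 2.64-fold against 2.30-fold. Of single genes in the table, 50.4% did not overlap between the groups. For the gap of Mst35Ba over Prtl99C the groups did not overlap either, and Mst35Ba, itself not called, enters both gaps. The exact two-sided permutation test gave p = 0.333, the smallest that this test allows with 2 libraries against 2, so it could not have passed whatever the values. Both genes have similar sequences, and how reads that match both were assigned is not given in the sources used here, so their separate levels are uncertain.

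**Figure D2:**
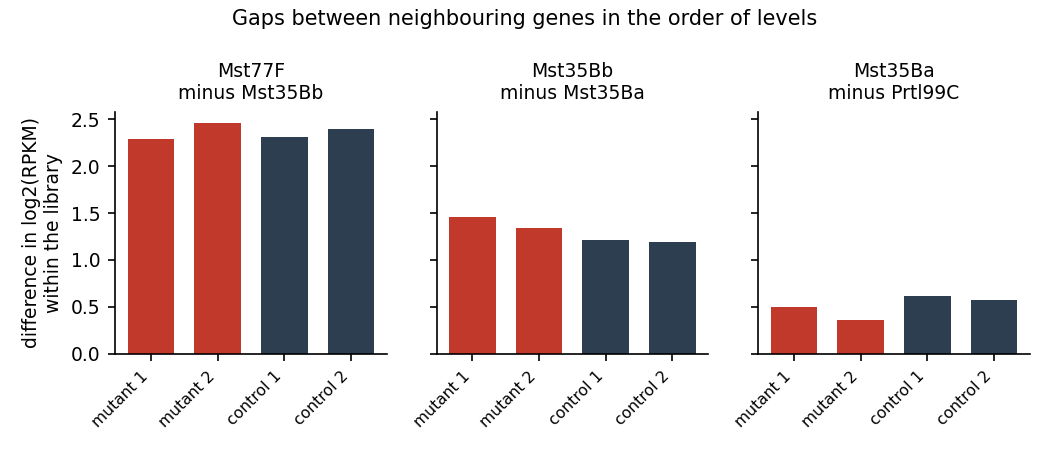
Difference in log2(RPKM) between neighbouring genes in the order of levels, in each mutant (red) and control (dark) library. The gap between Mst77F and Mst35Bb lies between 2.29 and 2.46 in all 4 libraries, while the gap between the protamines is 1.46 and 1.34 in mutant libraries against 1.21 and 1.20 in controls.

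Summed over the 4 genes, the libraries held 788 and 797 RPKM in mutant testes, against 773 and 763 RPKM in control testes. This was 0.313% and 0.317% of all RPKM in the table for the mutant and 0.307% and 0.303% for the control libraries. The totals were nearly equal between the libraries, so these shares only repeat the sums. Mst77F alone made up 75.2% and 76.4% of the sum in mutant libraries and 74.3% and 75.3% in control libraries, so the sum mostly follows that gene. Mst35Ba contributed 5.58% and 5.48% in mutant libraries, against 6.47% and 6.25% in controls.

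The closest relatives of Mst77F are the Mst77Y copies on the Y chromosome, whose sequences resemble it closely. Reads can therefore be shared between them, and the split depends on the authors' counting. Mst77Y-4 stood at a log2(RPKM) of 5.53 in both mutant libraries, against 5.78 and 5.69 in the control libraries. Its mutant libraries lay below the controls, by -0.21 (SE 0.059, limma adjusted p 0.175, not passed). For Mst77Y-7 the values were 2.93 and 2.59 in mutant and 2.42 and 2.48 in control libraries, a difference in the opposite direction of 0.31 (SE 0.13, limma adjusted p 0.301) that did not pass either. Leaving out mutant replicate 1 gave 0.14, and leaving out mutant replicate 2 gave 0.48. The pseudogene Mst77Y-16Psi, named here after its values were seen, had means of 5.43 ± 0.013 in mutant and 5.36 ± 0.017 in control testes (SD, n = 2 each; limma adjusted p 0.545). All 3 lay far below the 9.23 and 9.17 of Mst77F.

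The other genes for nuclear basic and HMG-box proteins of the sperm head were likewise not called. Of 26 names listed, which include 16 Mst77Y copies, 11 were measured, which here and below means found in the table. Of these, 0 passed limma in either direction, while 2, tHMG1 and Mst77Y-4, had an unadjusted p under 0.05, both lower in the mutant. Over all genes, 17.7% stood at such a p. The median difference of the 11 was 0.010, that of the 4 main genes 0.024 and that of all genes 0.0045. With 6 positive and 5 negative differences the 11 genes did not lie on one side.

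Tpl94D, a transition protein that occupies spermatid chromatin between histones and protamines, had log2(RPKM) values of 7.45 and 7.42 in mutant libraries, against 7.35 and 7.37 in controls. The mutant libraries were above the controls by a difference of 0.078 (SE 0.051, limma adjusted p 0.475). The paired genes tHMG1 and tHMG2, listed as CG7045 and CG7046, encode HMG-box proteins found in spermatid nuclei for a short time during this exchange. tHMG1 stood at 7.90 and 7.87 in mutant libraries, against 8.11 and 8.13 in controls. That difference, -0.24 (SE 0.051, interval -0.37 to -0.11), was larger than the spread of either group, with an unadjusted p of 0.0044 and an adjusted p of 0.105 in limma. Its neighbour tHMG2, at 6.58 and 6.77 in mutant and 6.79 and 6.96 in control libraries, was lower in the mutant as well, by -0.20 (SE 0.090, adjusted p 0.326). Neither passed. Leaving out 1 library at a time, the difference ranged from -0.26 to -0.22 for tHMG1 and from -0.30 to -0.11 for tHMG2, whose smallest value was without mutant replicate 1.

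Mst33A, an HMG-box protein of the sperm nucleus, averaged 7.45 ± 0.018 in mutant and 7.46 ± 0.042 in control testes (SD, n = 2 each), a difference of -0.0054. The remaining 5, CG14835, CG30056, CG31010, CG34269 and CG42355, are known here only as listed HMG-box relatives. Their differences ran from -0.082 for CG34269 to 0.059 for CG42355, with limma adjusted p from 0.549 to 0.954. CG14835 differed by 0.018, CG30056 by 0.023 and CG31010 by 0.010. The groups overlapped for these 3, while those of 50.4% of all genes did not.

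**Figure D3:**
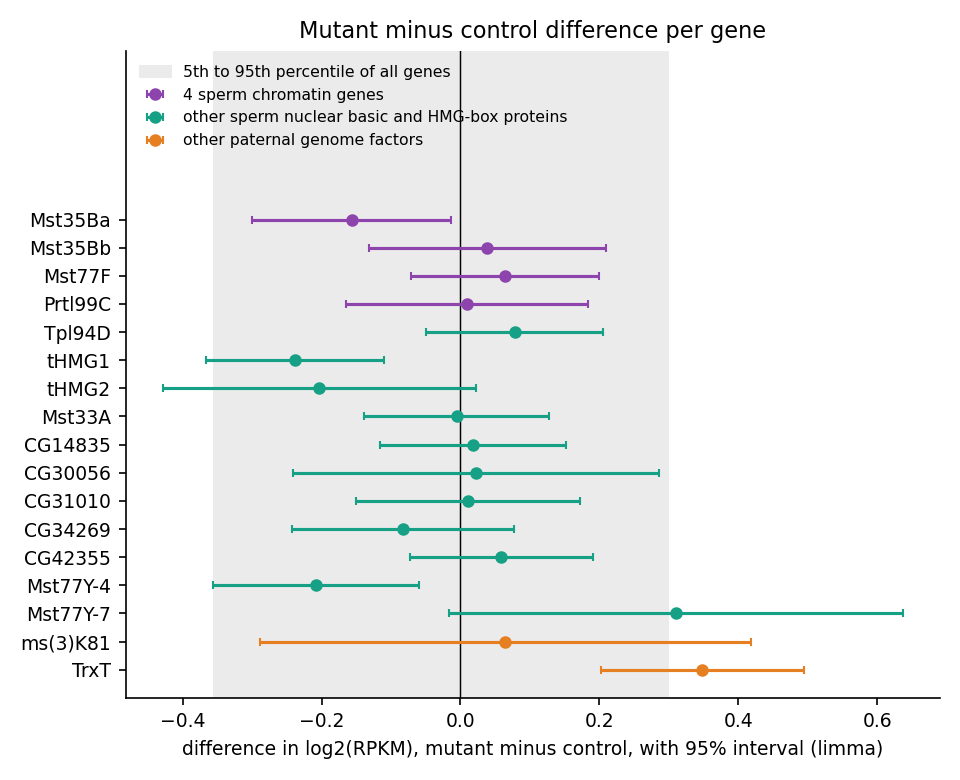
Difference in log2(RPKM), mutant minus control, with the 95% interval from limma for the 4 sperm chromatin genes (purple), 11 other nuclear basic and HMG-box genes (green) and 2 other paternal genome genes (orange); the grey band spans the 5th to 95th percentile of all genes, from -0.35 to 0.30. Only Mst77Y-7 at 0.31 and TrxT at 0.35 lie outside the band, and none of the 17 passed the adjusted threshold.

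The list of other paternal genome factors had 2 of 3 genes measured, with 0 called by limma and 1 at an unadjusted p under 0.05, against 17.7% of all genes. TrxT, the testis thioredoxin, is a relative of the egg thioredoxin that opens the disulphide bonds of protamines after fertilization. It had log2(RPKM) values of 8.24 and 8.16 in mutant libraries and 7.88 and 7.82 in control libraries, so that both mutant libraries were higher. The difference of 0.35 (SE 0.058, interval 0.20 to 0.49) corresponds to a ratio of 1.27 and missed the threshold, with an adjusted p of 0.0656 in limma. Among these 17 genes TrxT had the widest difference. It was called in the fit with the replicate number as a block (adjusted p 0.0335). The telomere protein gene ms(3)K81, which protects paternal chromosome ends, averaged 2.90 ± 0.25 in mutant and 2.83 ± 0.12 in control testes (SD, n = 2 each; limma adjusted p 0.85).

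Genes that handle the histones these proteins replace were measured for 16 of 22 listed names. By limma 0 were called, with 2 at an unadjusted p under 0.05, against 17.7% of all genes. Those 2 were mil, also known as tNAP, a histone chaperone of the testis, and BigH1, the germ line and early embryonic linker histone. mil stood at 7.82 and 7.72 in mutant and 7.55 and 7.61 in control libraries on the log2(RPKM) scale, a difference of 0.19 (SE 0.061, adjusted p 0.221). BigH1 had 3.40 and 3.52 in mutant libraries, against 3.28 and 3.15 in controls, a difference of 0.24 (SE 0.089, adjusted p 0.258). Both had mutant libraries above the controls. Hira, the chaperone that deposits histone H3.3 on the paternal genome in the zygote, averaged 1.25 ± 0.096 in mutant and 1.49 ± 0.17 in control testes (SD, n = 2 each; adjusted p 0.371). The median difference of the 16 was 0.019.

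Testis bromodomain proteins bind acetylated histones and take part in spermatocyte transcription. All 3 listed genes were measured and 0 had an unadjusted p under 0.05 in limma, against 17.7% of all genes. tbrd-1 averaged 4.59 ± 0.11 in mutant and 4.73 ± 0.13 in control testes (SD, n = 2 each), and tbrd-2 and tbrd-3 differed by 0.0087 and 0.030. Their groups overlapped in each case, while those of 50.4% of all genes did not. With 3 genes, such counts say nothing particular about the list.

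Structural genes of the sperm tail are, like the protamines, transcribed before meiosis and translated late. All 9 listed Mst84D, Mst87F, Mst98C and don juan genes were measured, at mean levels between 7.48 and 10.1 on the log2(RPKM) scale, which brackets Mst77F. By limma 0 were called and 3 had an unadjusted p under 0.05, against 17.7% of all genes. The cysteine-rich tail protein gene Mst98Cb averaged 9.46 ± 0.057 in mutant and 9.19 ± 0.024 in control testes (adjusted p 0.112), and its relative Mst98Ca 9.74 ± 0.00 in mutant and 9.54 ± 0.0023 in control testes (adjusted p 0.158; SD, n = 2 each). In the opposite direction, dj, a protein of the sperm tail and mitochondrial derivative, averaged 7.85 ± 0.053 in mutant and 8.00 ± 0.032 in control testes (adjusted p 0.259). Mst84Dc, the most abundant of them, differed by 0.099 (adjusted p 0.583), with a range from 0.016 without control replicate 2 to 0.18 without control replicate 1. Whether the differences of Mst35Ba and of these genes differ from each other was not tested.

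**Figure D4:**
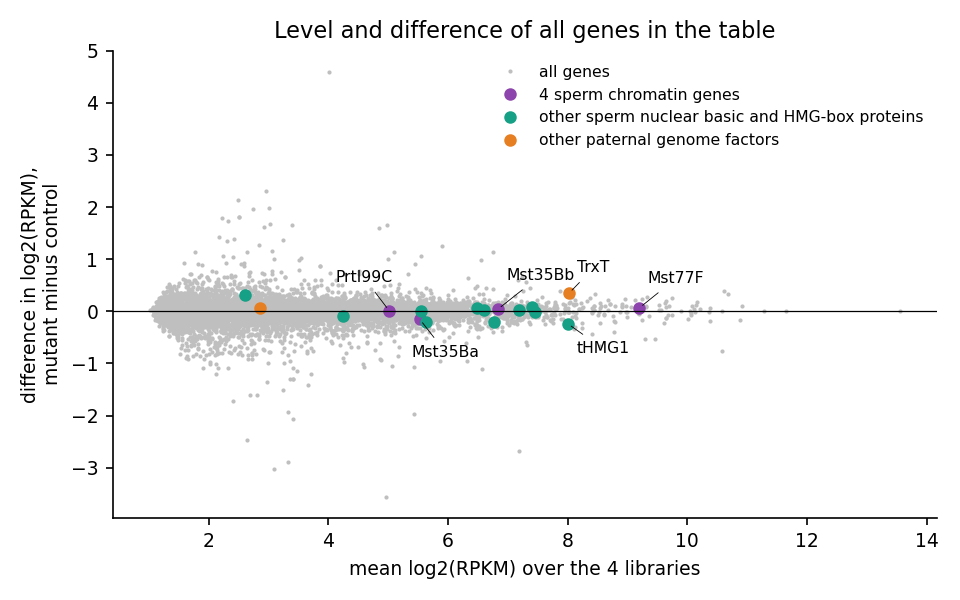
Each point is a gene of the table, with its mean log2(RPKM) over the 4 libraries on the x axis and its mutant minus control difference in log2(RPKM) on the y axis. The 4 sperm chromatin genes (purple) lie between -0.16 and 0.064 within the dense band around 0, with Mst77F far to the right at a mean of 9.20.

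Other genes of the table had patterns over the 4 libraries close to those of the 4 sperm chromatin genes. Likeness was measured as the distance between the 4 log2 values after centring each gene on its own mean. Nearest to Mst35Ba were CG10053 (0.0105), Tim13 (0.0112) and coro (0.0123). For Mst35Bb they were att-ORFA (0.0145), CG6182 (0.0172) and Kat60 (0.018), for Mst77F SRPK (0.0083), Hnf4 (0.0092) and CG5721 (0.0098), and for Prtl99C wbl (0.0128), CG6195 (0.0129) and CG8128 (0.0182). Within a distance of 0.1 lay 433 genes for Mst35Ba, 754 for Mst35Bb, 1188 for Mst77F and 619 for Prtl99C. Mst77F and Prtl99C varied so little that a gene without any variation would also lie within 0.1 of them. Large counts for these genes therefore do not show a shared pattern. With only 4 libraries such likeness is a description.

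The deposited table marks TargetScan predictions for miR-313, a microRNA of the deleted cluster, separately for its 3p and 5p arms. Neither mark stood at any of the 4 genes. Over the whole table, the 3p mark was given to 486 genes (6.45%) and the 5p mark to 241 (3.20%). At such shares, the lack of a mark at 4 genes says nothing particular about them. Among the 11 related nuclear protein genes, Tpl94D and CG31010 (18.2% of the list) are marked for the 5p arm and none for the 3p arm. Of the 16 histone-handling genes yem (6.25%), a partner of Hira, is marked for 5p, with a difference of 0.076 (limma adjusted p 0.72). These are small counts, and whether such marks are more frequent in these lists was not tested.

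Markers of germ line stages and of other tissues were read in the same libraries. Post-meiotic spermatid genes summed to 1142 and 1078 RPKM in mutant libraries and 1037 and 1068 RPKM in controls, with 13 of 15 listed genes measured and 0 called by limma. At an unadjusted p under 0.05 in limma stood 3 of them, boly, p-cup and r-cup, with differences of 0.21, 0.25 and 0.21. Of all genes, 17.7% stood at such a p, 8.18% of them higher and 9.47% lower in the mutant, counted over the whole table. The median of the list was 0.087, with 11 differences positive and 2 negative. Spermatocyte genes (12 of 14 measured, 0 called, 3 at an unadjusted p under 0.05) summed to 472 and 446 RPKM in mutant and 398 and 427 RPKM in control libraries. Those 3 were tomb, which differed by -0.42 (limma adjusted p 0.0898), mia by 0.33 (0.183) and fest by 0.21 (0.258). Without fest, the most abundant, the other 11 summed to 114 and 117 RPKM in mutant and 115 and 114 RPKM in control libraries, and the median difference of the list was -0.030, with 7 of 12 negative. Genes of stem cells and spermatogonia (4 of 7 measured, 0 called, 0 at an unadjusted p under 0.05) summed to 34.1 and 32.0 RPKM in mutant and 33.9 and 34.7 RPKM in control libraries. Genes of early and of late germ line stages were thus both measured in the labelled tissue. The early stages rest on nos, vas, bgcn and tut, at mean log2(RPKM) between 2.40 and 3.65, while the listed bam, zpg and stg were not found in the table. The cyst and hub cell genes (4 of 8 measured, 0 called, 1 at an unadjusted p under 0.05) summed to 29.5 and 32.6 RPKM in mutant and 29.8 and 31.9 RPKM in control libraries. Among them shg differed by -0.21 (limma adjusted p 0.278) and the gene so by 0.18 (0.436). Accessory gland genes, from a gland that adjoins the testis, were abundant, with 12 of 13 listed names measured as distinct genes and sums of 3857 and 4396 RPKM in mutant and 4727 and 4873 RPKM in control libraries. Without the sex peptide gene SP, the most abundant of them, the other 11 summed to 2746 and 3145 RPKM in mutant and 2647 and 2971 RPKM in control libraries, which overlap. The median difference of the 12 was 0.027, with 8 positive, and 4 had an unadjusted p under 0.05, of which 2 differed upward and 2 downward. SP fell by 0.75 in the mutant (limma adjusted p 0.0314), a call lost without control replicate 1 (0.118) or control replicate 2 (0.0867). Not called were Acp76A, which differed by 0.66 (adjusted p 0.0742), Acp32CD by -0.48 (0.189) and Acp53Ea, named after its values were seen, by 0.40 (0.244). Ejaculatory duct and bulb genes (4 of 6 measured, 0 called, 0 at an unadjusted p under 0.05) varied between libraries of a group, with 423 and 524 RPKM in mutant and 678 and 341 RPKM in control libraries. Peb differed by -2.47 (limma adjusted p 0.299), with log2(RPKM) values of 5.55 and 2.23 in the control libraries alone. PebIII differed by -0.41 (0.388) and Est-6 by 0.57 (0.484). Fat body had 1 of 6 listed genes measured, Adh, which rose by 0.88 in the mutant (adjusted p 0.0251). That call was lost without mutant replicate 2 (0.0871), control replicate 1 (0.0779) or control replicate 2 (0.115). Muscle (3 of 8 measured) and hemocytes (1 of 6) had 0 called genes and 0 at an unadjusted p under 0.05. Whether RNA of the accessory gland or of other tissues had a part in the differences given here was not tested. Adh alone does not show that fat body RNA was present.

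**Figure D5:**
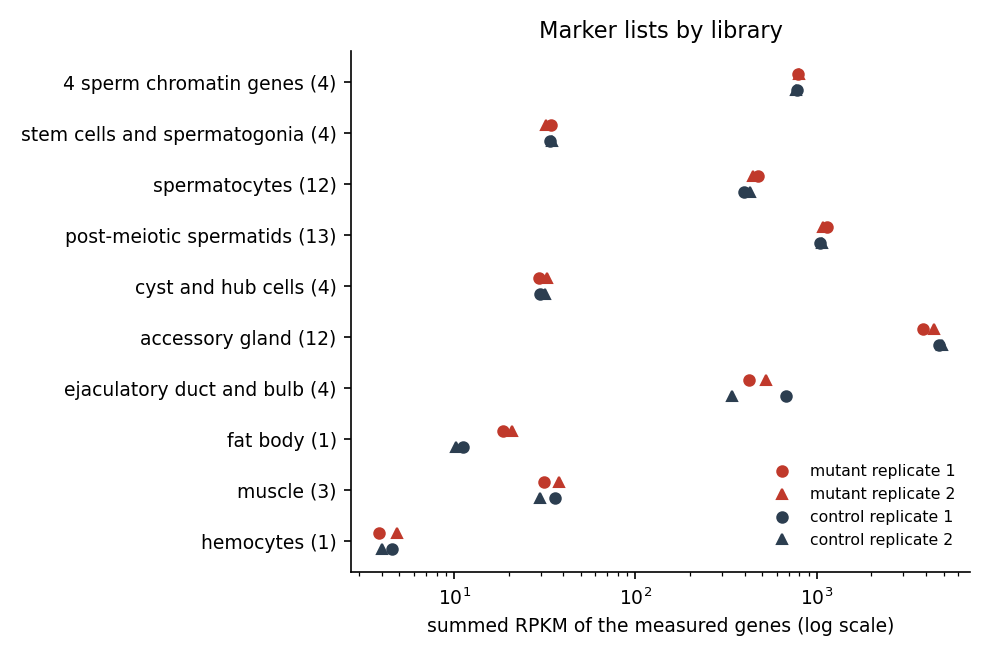
Summed RPKM (log axis) of the measured genes of each marker list, whose number is in brackets, in mutant (red, upper) and control (dark, lower) libraries; circles are replicate 1 and triangles replicate 2. The 4 sperm chromatin genes sum to 788 and 797 RPKM in mutant libraries against 773 and 763 in controls, while the ejaculatory duct and bulb list is spread over 678 and 341 RPKM within the control group.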

How the data were processed

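For 4 testis libraries the authors deposited a log2(RPKM) value per gene, per the file headers, with marks for predicted miR-313 targets, per the series text. The submitters' processing notes name TopHat. Not given in the sources used here are its version, how reads were counted, whether strand was used and the genome build. The lowest value was 1.00, and the sorted columns differed by at most 0.044, the pattern that quantile normalization leaves. Depth is unknown, and genes outside the table were not analysed here. Why a listed gene is missing from the table is not known, so it may have been assayed. The deleted hairpins were not analysed in these libraries, so the genotype labels were not checked against them.

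Mutant and control libraries entered a limma fit (version 3.58.1, R 4.3.3, trended eBayes, 3.46 prior degrees of freedom) without a pseudocount or a further filter. It was two-sided, with Benjamini-Hochberg adjustment over all 7539 genes and a threshold of 0.05. The fit was tested on simulated data with changes larger than any difference of the 4 genes, so that test says nothing about differences of their size. Intervals are limma's 95% intervals. A permutation test in scipy 1.17.1 served the protamine balance. The members and gene lists were chosen with earlier results of these data known. Named were the 4 genes, all measured related nuclear protein and paternal genome genes, of each other list the 3 with the smallest p and the most abundant 1, and the 3 genes nearest to each member. Listed names were matched by name, gene ID or RefSeq synonym (Release 6 assembly, whose coordinates are not used). Alternatives were a pseudocount of 1, a minimum mean log2(RPKM) of 3, eBayes without trend, median centring, a replicate block and leaving out each library.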

Additional observations from a re-analysis of the deposited data

How the results depend on the processing

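None of the 4 sperm chromatin genes was called under any alternative run. Leaving out 1 library at a time, the difference ranged from -0.19 to -0.12 for Mst35Ba, from -0.024 to 0.10 for Mst35Bb, from 0.044 to 0.084 for Mst77F and from -0.057 to 0.076 for Prtl99C. The number of genes called over the whole table was 113, and 50 with a minimum mean log2(RPKM) of 3, which tests 4106 genes, 238 with the replicate block, and 22 to 99 when 1 library was left out (26 without mutant replicate 2, 22 without control replicate 1, 34 without control replicate 2). The labels share replicate numbers between the groups without saying that they pair the libraries, and the correlation of same-numbered deviations was 0.060, so the block was kept apart from the results. With the block, 1 of the 2 paternal genome genes was called, TrxT (0.35), and 3 accessory gland genes, among them Acp76A (0.66, adjusted p 0.0292) and Acp32CD (-0.48, adjusted p 0.0285). The cause was not tested for these changes. With a pseudocount of 1, an alternative chosen after seeing the data for levels and gaps, the log2 level was 5.49 for Mst35Ba in mutant testes, 9.17 for Mst77F and 5.06 for Prtl99C in control testes, and the gap between the protamines in control testes was 1.19. With libraries centred on their medians, the control level of Mst77F was 9.16 and Mst33A differed by 0.0018, a change of sign.

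Other differences that changed sign when 1 library was left out were all uncalled, with ranges from -0.035 to 0.024 for Mst33A, -0.0088 to 0.046 for CG14835, -0.13 to 0.17 for CG30056, -0.045 to 0.066 for CG31010, -0.11 to 0.24 for ms(3)K81, -0.054 to 0.071 for tbrd-2, -0.035 to 0.095 for tbrd-3 and -0.0099 to 0.064 for soti. Among markers of other tissues they were -0.080 to 0.25 for upd1, -0.17 to 0.15 for Fas3, -0.69 to 0.17 for Dup99B, -0.079 to 0.26 for Act57B, -0.25 to 0.14 for Mlc1, -0.069 to 0.24 for Mlc2 and -0.15 to 0.18 for crq. Without a change of sign, the range was -0.36 to -0.12 for Hira and -0.23 to -0.049 for tbrd-1. Precision is limited by 2 libraries per group and by an unknown depth.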
